A study of Mus musculus with 4 samples.

Results

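The regions described are H3K23pr peaks whose summits lay inside a long noncoding RNA (lncRNA) gene on mouse chromosomes 1 to 19 and more than 2 kb from every protein-coding gene. Genes were those of the RefSeq annotation of GRCm38.p6, the assembly of mm10, which listed 12408 autosomal lncRNA genes and 0 genes of biotype ncRNA. The rule kept 2794 of 41122 autosomal peaks in KO liver and 3593 of 53395 in WT liver. KO was RPN11 hepatocyte-specific knockout and WT was RPN11 flox/flox, both in male C57BL/6 mice, and each genotype gave 1 immunoprecipitated (IP) liver library and 1 input library. Both groups came from mice kept with food and water freely available. The age of the mice, the driver of the deletion and whether livers were pooled were not given in the sources used here. Cells of the liver other than hepatocytes are not targeted by a hepatocyte-specific deletion. The study concerned fatty liver disease and the enzyme RPN11, and its comparison of the genotypes asked where H3K23 propionylation differs when RPN11 is lost from hepatocytes.

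RPN11, encoded by Psmd14, is the deubiquitylating enzyme of the proteasome lid, which removes ubiquitin chains from substrates as they are degraded. H3K23pr is a propionyl group on lysine 23 of histone H3, a short-chain acylation that draws on propionyl-CoA and that has been described at active chromatin. A lncRNA gene is transcribed into a long RNA that is not translated, and several such RNAs act in the nucleus, as scaffolds of nuclear bodies, as silencers of imprinted genes or as regulators of a neighbouring gene, while others are hosts from which microRNAs or small nucleolar RNAs are cut.

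The peak lists hold no transcript levels, so neither the tissue label nor the deletion was checked here. With 1 library per genotype there is no replicate and no test between genotypes. All intervals are 95% intervals that cover counting error only, and every ratio between genotypes compares those libraries. Once the caller had dropped duplicates, 15468265 fragments remained in the KO IP and 10000823 in its input, against 13615838 in the WT IP and 9385834 in its input. The mean IP fragment was 71 bp in KO and 97 bp in WT. The lowest local background, which is the number of fragments the peak caller expected at a site, was 0.568 in KO and 0.692 in WT.

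Few of the peaks kept by the rule touched an annotated start of a lncRNA gene, of which a gene can have several. The RefSeq promoter table gave 300 bases around a start, 250 before and 50 after it, for 6935 windows whose start lay in lncRNA territory. A KO peak touched 18 of these windows, in 16 genes, and a WT peak touched 23 windows, in 22 genes. The summit itself lay inside 13 windows in KO and 10 in WT, so KO was not below WT in windows that held a summit. Overlapping windows can hold the same summit, so these are counts of windows and not of summits. The rule asks for a summit inside a lncRNA gene, while 250 of the 300 bases lie before the start and can fall outside the gene. Low counts here are thus partly set by the rule and do not show that starts lack peaks. The share of like windows touched elsewhere was not computed. Junos was the 1 gene touched in both lists. The median GC content of touched windows was 38.9% in KO and 46.3% in WT, against 47% over all 6935 windows.

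Windows of 3 genes, chosen after their values were seen, are shown with the bases under a peak in capitals and all other bases in lower case. Junos, a gene transcribed away from the transcription factor gene Jun, is shown at the last of its 7 annotated starts, 95.2 kb into the gene from the first, and not at the start beside Jun. That window is chr4:95147236-95147535 on the plus strand, and it is printed once for each list because the KO and WT peaks cover different bases of it. Gm21286, which lies among the major urinary protein genes, whose products are abundant liver secretions, is shown at chr4:60838675-60838974, plus strand, for its KO peak, at a start 1.56 kb after its first. Gm13605 is shown at chr2:35222294-35222593, plus strand, for its WT peak, which had the most fragments of any peak touching a window, at a start 0.284 kb after the first. The sequences are RefSeq's, on GRCm38.p6, 5′ to 3′ along the gene's strand.
Junos, KO peak: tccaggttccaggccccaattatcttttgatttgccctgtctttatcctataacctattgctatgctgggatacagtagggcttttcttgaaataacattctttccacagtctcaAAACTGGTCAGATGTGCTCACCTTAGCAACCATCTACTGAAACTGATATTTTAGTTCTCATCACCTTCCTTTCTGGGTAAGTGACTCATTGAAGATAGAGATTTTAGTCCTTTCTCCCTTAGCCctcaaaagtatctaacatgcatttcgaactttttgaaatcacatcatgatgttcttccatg
Junos, WT peak: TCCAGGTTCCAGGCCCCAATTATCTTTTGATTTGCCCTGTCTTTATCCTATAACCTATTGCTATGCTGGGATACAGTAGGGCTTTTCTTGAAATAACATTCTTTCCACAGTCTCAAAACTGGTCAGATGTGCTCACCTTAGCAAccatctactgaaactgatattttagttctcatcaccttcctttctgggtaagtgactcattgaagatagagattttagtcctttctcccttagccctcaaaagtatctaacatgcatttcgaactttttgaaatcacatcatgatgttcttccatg
Gm21286, KO peak: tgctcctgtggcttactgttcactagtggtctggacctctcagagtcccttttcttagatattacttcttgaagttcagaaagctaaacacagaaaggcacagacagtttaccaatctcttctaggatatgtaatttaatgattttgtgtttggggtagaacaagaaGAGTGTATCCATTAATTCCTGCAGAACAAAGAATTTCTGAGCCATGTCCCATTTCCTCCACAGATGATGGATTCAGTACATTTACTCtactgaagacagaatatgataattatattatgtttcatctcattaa
Gm13605, WT peak: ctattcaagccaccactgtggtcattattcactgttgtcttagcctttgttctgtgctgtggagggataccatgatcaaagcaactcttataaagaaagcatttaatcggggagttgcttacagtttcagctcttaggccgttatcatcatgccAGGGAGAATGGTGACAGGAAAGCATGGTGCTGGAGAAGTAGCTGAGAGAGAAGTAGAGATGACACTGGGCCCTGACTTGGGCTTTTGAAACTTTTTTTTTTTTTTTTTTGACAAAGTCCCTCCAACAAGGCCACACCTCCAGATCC

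At Junos the KO peak had 7 fragments over its summit, 98 bases before the start, and the WT peak had 5 fragments over a summit 280 bases before it. The peaks shared 29 bp. The capitals of the KO line hold TGACTCA, the heptamer bound by Jun and Fos dimers, with its first base 54 bases before the start, and the WT peak ended before it. This heptamer was looked for after the sequence was read. On either strand, as TGACTCA or TGAGTCA, it stood in 2 of 18 windows touched in KO and in 1 of 23 touched in WT, against 7.04% of the 6935 lncRNA windows and 5.2% of all 32851 windows of the table, so the match describes this window and no more. At Gm21286 the KO summit had 5 fragments and lay 64 bases before the start. At Gm13605 the WT summit had 8 fragments and lay 27 bases before the start.

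Counting every called peak, lncRNA genes held peaks about as densely as the sequence outside all genes, and less dense than over protein-coding genes. KO liver had 16.9 peaks per Mb of lncRNA territory (interval 16.3 to 17.5) and WT liver had 21.7 (21.0 to 22.4), over 165.5 Mb. Outside genes, over 1160 Mb, KO had 16.2 per Mb and WT had 20.9. The lncRNA density over that outside genes was 1.04 in KO (0.999 to 1.08) and 1.04 in WT (1.00 to 1.07). Among stronger peaks its interval lay above 1. With at least 5 fragments it was 1.07 in KO (1.02 to 1.13) and 1.09 in WT (1.04 to 1.14), and with a caller q of 0.05 or smaller it was 1.11 in KO (1.02 to 1.2) and 1.23 in WT (1.09 to 1.37). This excess is over sequence outside genes alone. The share of peaks at that q was 27.4% in KO and 9.94% in WT over lncRNA genes. It was 25.7% and 8.39% outside genes, and 27.4% and 9.61% over all autosomal peaks. Protein-coding genes with 2 kb on each side had 18.1 peaks per Mb in KO and 23.7 in WT. The lncRNA density was 0.933 times theirs in KO (0.896 to 0.971) and 0.916 times in WT (0.884 to 0.948). Just inside the 2 kb limit of the rule, between 2 and 10 kb from a protein-coding gene, lncRNA genes held 16.3 KO and 23.9 WT peaks per Mb. On the other side of it, where lncRNA genes overlap or lie within 2 kb of a protein-coding gene, they held 16.2 KO and 23.8 WT peaks per Mb.

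**Figure D1:**
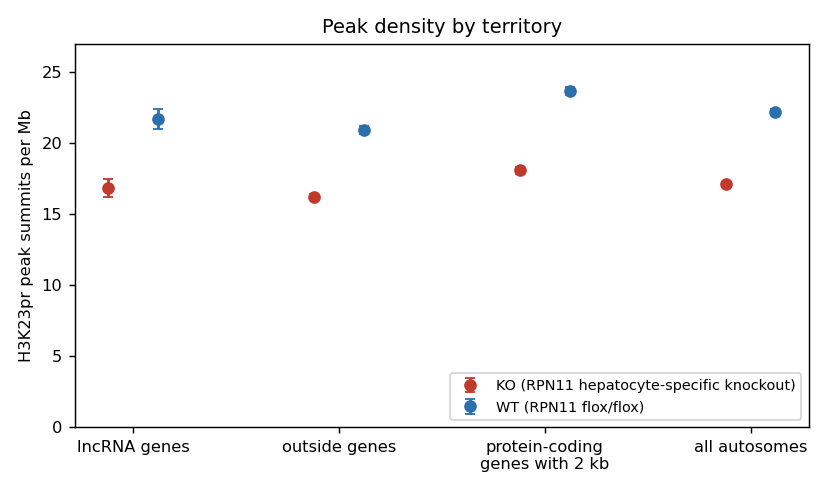
H3K23pr peak summits per Mb (vertical axis) in lncRNA genes, outside genes, in protein-coding genes with 2 kb, and on all autosomes, for KO (red) and WT (blue), 1 library each; bars are 95% Poisson intervals. The KO points lie below the WT points in each territory, and lncRNA genes (16.9 in KO, 21.7 in WT) lie near the level outside genes.

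KO liver had fewer peaks over lncRNA genes than WT liver, by about the factor found elsewhere. The KO density was 0.778 times the WT density over lncRNA genes (0.740 to 0.817), 0.775 times outside genes, and 0.770 times over all autosomal peaks (0.760 to 0.780). The order depended on the measure of strength. By fragments it stayed, with a ratio of 0.696 among peaks of at least 5 fragments, and with 76 KO and 159 WT peaks of 8 to 10 fragments and 7 KO and 9 WT peaks of 11 or more. It reversed with the caller's q, a cut that stood at unlike fragment counts in the lists. At the lowest background a summit of 6 fragments passed a q of 0.05 in KO (−log10 q 1.38). In WT a summit of 6 fragments did not pass (1.07), and a summit of 7 did (1.57). Among peaks with a caller q of 0.05 or smaller the KO density over lncRNA genes was 2.14 times the WT density (1.89 to 2.44), and it was 2.37 times outside genes and 2.2 times over all autosomal peaks. Depth, fragment size and lowest background differed between the libraries in the way given above, and their part in either ratio was not tested. In whole liver, fewer cells of a type and less signal per cell cannot be told apart. KO peaks covered 1.70 kb per Mb of lncRNA territory and WT peaks covered 3.15, with median widths of 90 bp in KO and 131 bp in WT.

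The KO to WT ratio was lower close to protein-coding genes than far from them. Between 2 and 10 kb from the nearest protein-coding gene the KO to WT ratio of lncRNA peaks was 0.682 (0.588 to 0.791), and it was 0.728 between 10 and 50 kb, 0.793 between 50 and 200 kb, and 0.870 beyond 200 kb (0.786 to 0.962). The intervals of the nearest and the farthest band overlapped slightly. Outside genes the ratio took the values 0.657, 0.749, 0.795 and 0.834 in these bands, so the gradient was not shown to be particular to lncRNA genes. The KO density differed little between the bands, at 16.3, 16.3, 17.7 and 16.7 peaks per Mb, while the WT density was 23.9, 22.4, 22.4 and 19.2.

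**Figure D2:**
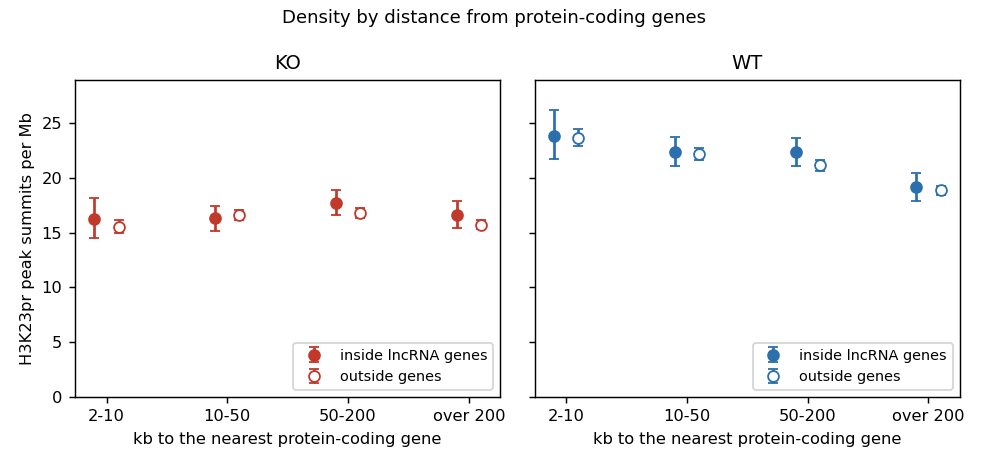
H3K23pr peak summits per Mb against distance to the nearest protein-coding gene in kb, in KO (left) and WT (right), inside lncRNA genes (filled) and outside genes (open), with 95% Poisson intervals. WT density over lncRNA genes is lowest beyond 200 kb, at 19.2, while the KO points lie between 16.3 and 17.7.

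Within lncRNA genes the KO to WT ratio was lowest in the first 1 kb after the gene start. There KO had 66 peaks, at 11.8 per Mb, and WT had 128, at 22.9 per Mb, a ratio of 0.516 (0.377 to 0.699). From 1 to 5 kb the ratio was 0.627, from 5 to 20 kb it was 0.796, and from 20 to 100 kb it was 0.844 (0.771 to 0.924). The KO density over these steps was 11.8, 14.9, 17.7 and 18.3 per Mb, and the WT density was 22.9, 23.8, 22.3 and 21.7. Protein-coding genes had ratios of 0.374, 0.592, 0.768 and 0.782 over the same steps. Positions within a gene were counted in lncRNA territory alone, in genes whose strand the promoter table gives. That table gives a strand for 9291 lncRNA genes, counted before the 2 kb limit is applied.

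Base composition at the start moved with this difference. lncRNA genes were divided into 3 groups by the GC content of the 300-base window, and peaks were counted in the first 5 kb of the gene. In the group of lowest GC, 10.3% to 45%, KO had 187 peaks, at 19.7 per Mb, and WT had 232, at 24.5 per Mb, a ratio of 0.806 (0.661 to 0.981). In the middle group the ratio was 0.564 (0.445 to 0.714), from 13.1 per Mb in KO and 23.2 in WT. In the group of highest GC, 51.3% to 86.3%, KO had 64 peaks, at 8.68 per Mb, and WT had 166, at 22.5 per Mb, a ratio of 0.386 (0.284 to 0.517). The highest group's density over the lowest group's was 0.440 in KO (0.326 to 0.588) and 0.921 in WT (0.750 to 1.13). In protein-coding genes it was 0.527 in KO and 0.990 in WT. The part of base composition in the KO to WT ratio was not tested.

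**Figure D3:**
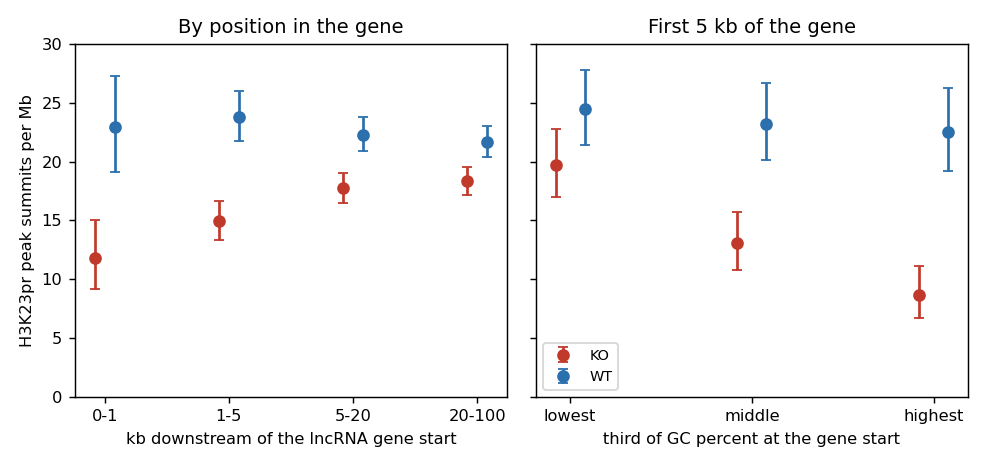
H3K23pr peak summits per Mb in lncRNA genes by kb downstream of the gene start (left) and, in the first 5 kb, by group of GC percent at the start (right), for KO (red) and WT (blue) with 95% Poisson intervals. KO density is 11.8 in the first 1 kb and 18.3 at 20 to 100 kb, and it is 19.7 in the lowest and 8.68 in the highest group of GC, while WT density stays between 21.7 and 24.5.

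A minority of lncRNA genes held a peak. Of 9125 genes with sequence outside the 2 kb limit, 1698 held a KO peak (18.6%), 2249 held a WT peak (24.6%) and 880 held both (9.64%), and 6058 held neither. Of the genes with a KO peak 51.8% also had a WT peak, and of those with a WT peak 39.1% also had a KO peak. Genes that held both were long, with a median of 49779 bp outside the limit against 8273 bp over all 9125. Among the 260 genes over 100 kb, 83.1% held a KO peak and 88.8% held a WT peak. Among genes of at most 5 kb, 2.93% held a KO peak and 5.37% held a WT peak. The KO to WT ratio of peak counts was 0.550 in genes of at most 5 kb (0.415 to 0.725) and 0.875 in genes over 100 kb (0.793 to 0.965). A single peak was the usual finding, in 1128 of the genes with a KO peak and in 1489 of those with a WT peak. Most of the 9125 genes, 96.5%, carry predicted or clone-based symbols, and no role is given below for those.

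KO density over lncRNA genes was below WT density on 19 of 19 autosomes, with the whole interval under 1 on 11. Outside genes it was also below on 19 of 19, with the whole interval under 1 on all 19. Chromosome 17 had a KO to WT ratio of 0.456 (0.316 to 0.650), from 9.18 peaks per Mb in KO and 20.1 in WT, while the ratio outside genes on that chromosome was 0.746, and its KO density over lncRNA genes was 0.718 times that outside genes (0.521 to 0.968). On chromosome 10 KO had 26.5 peaks per Mb over lncRNA genes and 19.7 outside genes, 1.35 times as many (1.17 to 1.54), and WT had 27.5 and 24.7 per Mb. On chromosome 7 the WT density over lncRNA genes was 1.2 times that outside genes (1.03 to 1.40), and the KO density was 1.12 times (0.926 to 1.36). These 3 chromosomes were picked because their intervals stood apart among the 19.

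Long genes held the most peaks. Mir99ahg, the host gene of the miR-99a microRNA cluster (chr16:77329328-77558428), had 18 KO peaks and 7 WT peaks. That is 78.6 per Mb in KO (46.6 to 124) and 30.6 per Mb in WT (12.3 to 63.0), a KO to WT ratio of 2.57 (1.02 to 7.28). The 1 Mb on each side of it had 34.5 KO and 32.5 WT peaks per Mb, so the KO density in the gene was above that of its surroundings and the WT density was close to it. Its KO summits held 4 to 8 fragments and were spread over 13.1 to 175 kb from the start, and its WT summits held 4 to 7 fragments. Gm28905 (chr10:9975947-10168619) had 11 KO and 3 WT peaks, a ratio of 3.67 (0.969 to 20.5), with 57.1 KO peaks per Mb in the gene and 18 per Mb in the 1 Mb on each side. In WT it had 15.6 peaks per Mb in the gene and 33.5 per Mb on each side. The interval of its ratio reached below 1. Both genes were named for their high KO count, a choice that favours a KO density above WT and above the surroundings. The ratios and the comparisons with the 1 Mb on each side describe these genes and test nothing.

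**Figure D4:**
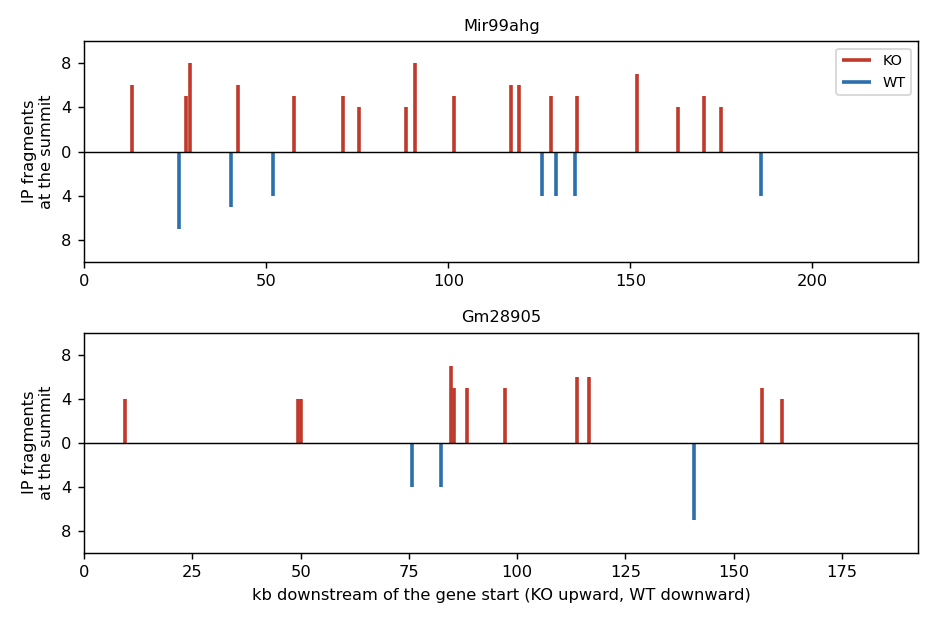
IP fragments at each peak summit (vertical axis, KO upward in red, WT downward in blue) against kb downstream of the gene start in Mir99ahg (top) and Gm28905 (bottom). Mir99ahg shows 18 KO and 7 WT summits and Gm28905 shows 11 KO and 3 WT summits, of 4 to 8 fragments each.

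In the other genes with the most peaks the lists were closer. Gm20754 (chr3:73066351-73594830) held 17 KO and 20 WT peaks, 5730522E02Rik (chr11:25616846-26210576) held 16 KO and 13 WT, and Gm13481 (chr2:48062220-48457265) held 14 KO and 18 WT. Gm32647, 1284 kb long on chromosome 7, held 14 KO and 24 WT peaks, at 10.9 per Mb in KO and 18.7 in WT, and the 1 Mb on each side had 10 KO and 17 WT peaks per Mb. Gm15270 held 13 KO and 9 WT peaks, Gm29536 held 13 and 7, Gm30382 held 13 and 10, and 1700019L22Rik held 12 and 16. The WT list also placed 2610307P16Rik with 9 KO and 12 WT peaks, 6530403H02Rik with 5 and 12, Gm30340 with 8 and 12, and A930011G23Rik with 9 and 11 among its leading genes. For each of these 12 genes the interval of the KO to WT ratio contained 1. Over the 277 genes with at least 5 peaks in the lists together, KO had more in 107, WT had more in 133, and the counts were equal in 37. Gm31815 and Gm35999, named after their values were seen, had 5 KO peaks each and 0 in WT. The 9 genes with at least 5 WT peaks and 0 in KO, also picked on their counts, included Pvt1 with 5 and Gm41832 with 7.

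**Figure D5:**
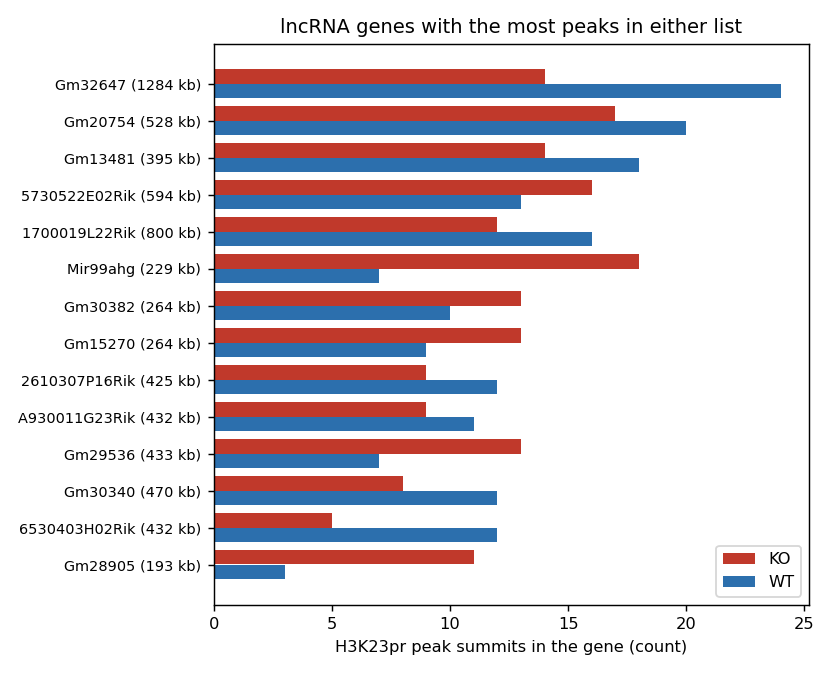
Number of H3K23pr peak summits in each of the 14 lncRNA genes that were among the 10 highest in either list, KO bar above WT bar, with gene length in kb beside the symbol. WT counts are higher in Gm32647 (14 in KO, 24 in WT) and KO counts are higher in Mir99ahg (18 in KO, 7 in WT).

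Known liver lncRNA genes held 38.7 KO peaks per Mb (15.6 to 79.8) and 27.7 WT peaks per Mb (8.98 to 64.5), with intervals that contained the 16.7 KO and 21.8 WT peaks per Mb of all lncRNA genes. Of the 12 listed liver genes with eligible sequence, 3 held a KO peak and 3 held a WT peak (25% each, against 18.6% and 24.6% of all lncRNA genes), with 7 KO and 5 WT peaks in all and a ratio of 1.40 (0.382 to 5.59). The median number of peaks per gene was 0 in both lists, as over all lncRNA genes. 9030622O22Rik, a neighbour of the hepatocyte factor gene Foxa2 (chr2:147944459-148040513), had 5 KO peaks of 5, 5, 5, 6 and 6 fragments and 3 WT peaks of 7, 6 and 4 fragments, and no KO peak overlapped a WT peak there. Lexis1, an LXR-induced lncRNA that lowers cholesterol synthesis genes in liver, had 1 KO peak of 4 fragments (chr4:53205811-53205889) and 0 in WT. Mexis, an LXR-responsive lncRNA next to the cholesterol exporter gene Abca1, had 0 in KO and 1 WT peak of 4 fragments (chr4:53264554-53264652). 0610031O16Rik had 1 KO peak of 6 fragments and 0 in WT, and B930025P03Rik had 0 in KO and 1 WT peak of 7 fragments.

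H19, an imprinted RNA abundant in fetal liver, held 0 peaks in either list, as did Hnf1aos1 and Hnf4aos, which are antisense to hepatocyte factor genes, and Gm15441, Gm16551, C730036E19Rik and 1810008I18Rik. These genes had little sequence outside the 2 kb limit, from 0.189 kb in Hnf4aos to 24.9 kb in Hnf1aos1, so a count of 0 is a weak limit. The upper end of the exact Poisson interval was 1410 peaks per Mb for H19 and 148 per Mb for Hnf1aos1. 0610005C13Rik had no such sequence, Mir122hg and Mir194-2hg were not matched in the annotation, and Blnc1 matched a protein-coding gene.

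Abundant nuclear and housekeeping lncRNA genes held 2 KO and 12 WT peaks, a ratio of 0.167 (0.0181 to 0.749). The peaks lay in 1 and 5 of the 9 genes with eligible sequence. Those shares were 11.1% in KO and 55.6% in WT, against 18.6% and 24.6% of all lncRNA genes, and do not allow for gene length. The density was 4.801 per Mb in KO (0.5814 to 17.34) and 28.8 per Mb in WT (14.88 to 50.32). Each interval contained the density over all lncRNA genes, 16.7 in KO and 21.8 in WT. Pvt1, the neighbour of Myc, had 0 in KO and 5 WT peaks of 4 to 6 fragments over 222.2 kb. Trp53cor1, the p53-induced RNA next to Cdkn1a, had 0 in KO and 3 WT peaks of 4 to 6 fragments. Neat1, the scaffold of paraspeckles, had 0 in KO and 1 WT peak of 8 fragments (chr19:5825779-5825929), 1.19 kb from the lower end of the gene. Oip5os1, which directs decay of the microRNA miR-7, had 0 in KO and 1 WT peak of 4 fragments. Lncpint, a p53-induced RNA, had 2 peaks in each list. Malat1, the RNA of nuclear speckles, Norad, which binds Pumilio proteins, Tug1 and Dancr held 0 in both.

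Imprinted lncRNA genes held 6 KO and 8 WT peaks in 3 of 6 genes each (50%, against 18.6% in KO and 24.6% in WT of all lncRNA genes), a ratio of 0.750 (0.214 to 2.46). These shares do not allow for gene length, and the median eligible sequence was 38.6 kb here against 8.27 kb over all lncRNA genes. The density over the imprinted genes was 7.25 per Mb in KO (2.66 to 15.8) and 9.67 per Mb in WT (4.18 to 19.1), with both intervals below the density over all lncRNA genes, and Snhg14 made up 667.7 kb of the 0.827 Mb behind it. Meg3, a maternally expressed RNA, had 0 in KO and 2 WT peaks of 6 fragments each, 0.619 and 5.73 kb from its start. Rian, from the same domain, had 1 KO peak and 0 in WT, and Airn, which silences Igf2r on the paternal allele, had 1 in each list. Snhg14, the host of small nucleolar RNAs that is antisense to Ube3a, had 4 KO and 5 WT peaks, and its strongest KO peak had 16 fragments over a local background of 4.64.

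Small-RNA host genes held 27 KO and 23 WT peaks, a ratio of 1.17 (0.648 to 2.14), and Mir99ahg gave 18 of the KO and 7 of the WT peaks. The peaks lay in 4 and 5 of 23 genes, 17.4% in KO and 21.7% in WT, near the 18.6% and 24.6% of all lncRNA genes. The density was 20.81 per Mb in KO (13.71 to 30.28) and 17.73 per Mb in WT (11.24 to 26.6). Each interval contained the density over all lncRNA genes, 16.7 in KO and 21.8 in WT. Mir100hg had 3 KO and 6 WT peaks, Dleu2, which hosts the miR-15a cluster, had 2 KO and 4 WT peaks, and Mir9-3hg had 0 KO and 1 WT peak. Developmental and neural lncRNA genes held 5 KO and 15 WT peaks, a ratio of 0.333 (0.0948 to 0.965). The peaks lay in 4 and 8 of 18 genes, 22.2% in KO and 44.4% in WT, against the same 18.6% and 24.6%. These shares do not allow for gene length, and the median eligible sequence was 20.8 kb here against 8.27 kb over all lncRNA genes. The density was 7.669 per Mb in KO (2.49 to 17.9) and 23.01 per Mb in WT (12.88 to 37.95). Each interval again contained the density over all lncRNA genes. Among the developmental and neural genes Nkx2-2os had 2 KO and 3 WT peaks. Sox2ot, which overlaps the neural factor gene Sox2, had 1 and 3, and Pantr1 and Rmst had 1 in each list. Lncenc1 had 0 KO and 3 WT peaks, and Miat and Dlx6os1 had 0 KO and 1 WT peak each. H19, Meg3 and Snhg14 each stand in more than 1 of these lists. The ratio over all lncRNA genes, with a peak counted once per gene it lies in, was 0.769 (0.733 to 0.808), so the 5 lists lay on both sides of it. None of these ratios is a test of its list.

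Most peaks rested on few fragments. The median summit held 5 fragments in both lists, with a range of 4 to 30 in KO and 4 to 3291 in WT, and 43.4% of KO and 36.8% of WT peaks had 4. The median fold over background, the authors' value with a pseudocount of 1, was 3.83 in KO and 3.54 in WT. A caller q of 0.05 or smaller was reached by 765 KO peaks, or 27.4%, where all autosomal KO peaks also gave 27.4%, and by 357 WT peaks, or 9.94%, against 9.61% of all autosomal WT peaks. A local background over 2 times the lowest was found at 26 KO peaks, 0.931%, against 1.09% of all autosomal KO peaks. It was found at 156 WT peaks, 4.34%, against 4.26% of all autosomal WT peaks. Of the peaks with 11 or more fragments, 6 of 7 in KO and 7 of 9 in WT lay at such sites.

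Gm32624 (chr16:86816909-86877369) held the strongest KO peak over a lncRNA gene, at chr16:86820782-86821234, with 29 fragments and 16.9-fold enrichment over a background of 0.773. A WT peak overlapped it by 393 bp, with 44 fragments and 2.90-fold enrichment over a background of 14.5. Scaled to IP depth the KO fragment count was 0.580 times the WT count (0.350 to 0.948), so the fold was higher in KO and the count was higher in WT. Gm52725 had a KO peak of 30 fragments, 7.57-fold over a background of 3.09, and the nearest WT peak was 6.81 kb away with 5 fragments. 4933406J09Rik and Gm5106 each had a KO peak of 10 fragments at 7.02-fold, and the nearest WT peaks were 14.7 and 30.6 kb away with 4 fragments each. 1 KO peak of 14 fragments lay in both 2700046A07Rik and Gm36598, which overlap. 4930529I22Rik, D030045P18Rik, Gm13715 and Gm31615 each had a KO peak of 9 fragments at 6.38-fold, with the nearest WT peak between 2.15 and 22.3 kb away.

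In WT the lowest p belonged to a peak in Gm33838 with 3291 fragments over a background of 2538.7, a fold of 1.3. The nearest KO peak to it had 4 fragments and was 7.17 kb away. Gm40034 had a WT peak of 26 fragments at 4.25-fold, and 1 WT peak of 11 fragments lay in both Gm28644 and Gm29669, at 6.51-fold. Gm29823 and Gm34035 each had a WT peak of 10 fragments at 6.50-fold, Gm38794 had 10 at 6.46-fold, 9130221F21Rik had 10 at 6.30-fold and D630024D03Rik had 11 at 6.05-fold. For the 7 of these genes other than Gm40034 the nearest KO peak lay 4.14 to 27.5 kb away and held 4 to 6 fragments. For Gm40034 it lay 10.6 kb away and held 11.

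Hardly any lncRNA peak was found at the same place in both genotypes. An overlap of at least 1 bp joined 27 KO peaks, 0.966% (0.638 to 1.40), and 27 WT peaks, 0.751% (0.496 to 1.09). Over all autosomal peaks the shares were 1.08% of KO peaks and 0.837% of WT peaks, within the intervals of the lncRNA shares. The 27 pairs lay on 12 chromosomes, and in 25 of them both peaks had at most 7 fragments. By raw count KO had more fragments in 13 pairs, fewer in 7 and as many in 7. The KO IP was the deeper library, and scaled to IP depth a pair of equal counts has a KO to WT ratio of 0.88. Besides Gm32624, 1 pair had 8 or more fragments in either list, in 2810404M03Rik on chromosome 8. It had 8 fragments at 5.74-fold in KO and 9 at 5.91-fold in WT, a depth-scaled ratio of 0.782 (0.263 to 2.28). Gm20755 had 7 fragments in each list and Bloc1s6os had 6 in each, and 4930467D21Rik held 2 of the pairs. These 3 genes were chosen after their values were seen.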

How the data were processed

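H3K23pr was measured by chromatin immunoprecipitation sequencing in 1 IP and 1 input library for each of 2 genotypes, and groups were taken from the genotype labels. The submitters' processing notes name cutadapt 1.9.3, Bowtie2 2.2.4 and the build mm10. Each IP was set against its own input by MACS2 2.1.1.20160309, per the file headers, at a p cutoff of 0.001, with at most 2 fragments of the same ends kept. The pileup deposited by the authors is a signal, the number of IP fragments over the summit. The deposited fold is a ratio of pileup to local background with a pseudocount of 1 on both. The deposited p-value and q-value are −log10 values; per the file headers q was not to be calculated, but the column held values, and it served in alternatives and descriptions.

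The local background was computed from pileup and fold; the Poisson p it gave matched the deposited value within 0.01 for 99.9976% of KO and 99.9945% of WT peaks. Territories were unions of RefSeq gene spans, leaving out the first 3 Mb of each chromosome. Densities have exact Poisson intervals, and shares and ratios have exact (Clopper-Pearson) binomial ones. The computation (Python 3.11.15, pandas 2.3.3, scipy 1.17.1) was tested on simulated data. Genes named are the 10 strongest and the 10 with the most peaks per list, those with shared peaks of 8 or more fragments, and listed genes with a peak; others are marked as chosen afterwards. The peaks, gene lists and naming rule were chosen with earlier results of these data known.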

Additional observations from a re-analysis of the deposited data

Results flagged for a closer look

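lncRNA genes outside the rule also carried peaks, above the limit of 3 that a count of 0 allows. On chromosome X, lncRNA genes more than 2 kb from protein-coding genes held 22 KO peaks, at 4.59 per Mb, and 21 WT peaks, at 4.38 per Mb. The density over the rest of chromosome X was not computed, so these values cannot be told apart from a level of the whole chromosome. In lncRNA sequence inside or within 2 kb of a protein-coding gene there were 790 KO peaks, at 16.2 per Mb, and 1164 WT peaks, at 23.8 per Mb.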

How the results depend on the processing

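Of 65 values of 11 results under 9 alternatives, 1 changed direction and 17 moved. A change of direction was counted only where the reported interval left out 1. The WT density of the highest over the lowest GC group, reported as 0.921 with an interval that held 1, rose above 1 as given below and counts as moved. Moved means beyond the counting interval of the value reported or, for a number of genes, beyond 1.5 times it. The other 47 did neither. The alternative of biotype lncRNA alone could change nothing, because the annotation held 0 genes of biotype ncRNA. All its values count among the 47 and say nothing of stability. Among those 47, numbers of genes outside the counting interval were 1643 in WT with at least 5 fragments, 2353 in WT with no extension of protein-coding genes, and 1484 in KO and 1916 in WT with an extension of 10 kb. With a caller q of 0.05 or smaller, the KO to WT density ratio reversed to 2.14. At the lowest background this cut took 6 fragments in KO and 7 in WT. The densities were then 4.62 per Mb in KO and 2.16 in WT, the densities over those outside genes 1.11 in KO (1.02 to 1.2) and 1.23 in WT (1.09 to 1.37), the genes with a peak 631 in KO and 343 in WT, the share of KO peaks overlapping a WT peak 0.392%, and the highest over lowest GC density 1.18 in WT. With at least 5 fragments, the densities were 9.56 per Mb in KO and 13.7 in WT, their ratio 0.696, the densities over those outside genes 1.07 in KO and 1.09 in WT, the genes with a KO peak 1122, and the WT GC ratio 1.24. Without sites of background over 2 times the lowest, the WT density was 20.8 per Mb. Asking an overlap of 50% of the shorter peak left shares of 0.573% in KO and 0.445% in WT. The causes were not tested, beyond the fewer peaks that each stricter setting leaves. The GC results and their alternatives were added after seeing the data. No paired analysis was possible because each genotype had 1 library. Depth limits these lists: summits of 4 or 5 fragments cannot show whether a site missing from the other list differs.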
